A study of Mus musculus with 8 samples.

Results

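The genes described here encode subunits of the proteasome. They are the 39 of 52224 genes in a mouse RNA sequencing table whose symbol is Psma, Psmb, Psmc or Psmd followed by a number. By textbook role, 16 belong to the core particle (8 to the alpha ring and 8 to the beta ring), 3 are the immunoproteasome subunits Psmb8, Psmb9 and Psmb10, and 20 belong to the regulatory particle (6 ATPases and 14 non-ATPase genes). The symbol rule also takes in 3 chaperones that assemble the regulatory particle without staying in it, Psmd5, Psmd9 and Psmd10. RNA was taken from hematopoietic stem cells of mouse bone marrow, sorted as LSK cells (no lineage markers, with Sca-1 and Kit) that lack CD48 and carry CD150. There were 4 libraries from DekTg mice and 4 from DekCon mice, both genotype names, and Dek encodes a chromatin-associated protein. The labels give neither the alleles behind the names, the promoter or cell type that drives a transgene, the age of the mice, nor whether each library came from its own mouse, so p-values measure the spread between these libraries, which may be technical.

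The proteasome degrades proteins that carry chains of ubiquitin. Its core particle is a barrel of stacked rings: the outer alpha rings form the gate, and the inner beta rings hold the protein-cutting sites of Psmb5, Psmb6 and Psmb7. In blood cells and in cells exposed to interferon gamma, Psmb8, Psmb9 and Psmb10 take the places of Psmb5, Psmb6 and Psmb7, and the resulting immunoproteasome makes many of the peptides shown on MHC class I molecules. The regulatory particle caps the barrel, binds the ubiquitin chain, cuts it off and, with its ring of ATPases, unfolds the protein and feeds it in.

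Expression values are gene read counts divided by 1 size factor per library, called normalized reads below; they take account of depth but not of transcript length. DekTg libraries held between 2642858 and 3591212 reads and DekCon libraries between 2525884 and 4101132. Dek, the gene the genotypes are named for, had 2699.7, 2296, 1862 and 2710.3 normalized reads in DekTg libraries 1 to 4, against 477, 539, 632 and 395 in DekCon libraries 1 to 4, although all 4 DekTg values differ from a whole number of reads and the sources used here do not say why. A list of 14 genes of stem cell sorting and identity also holds Cd48, which the sorted cells lack, and Flt3, shared with the macrophage and dendritic list. These genes summed to between 8465 and 9510 normalized reads in DekTg and between 7656 and 10332 in DekCon. None of the 14 was at 0 in every library of a group. Markers of other cell types were present as well. B and plasma cell markers (11 genes) summed to between 4591 and 5416 in DekTg and between 501 and 1280 in DekCon, and erythroid markers (9 genes) to between 495 and 615 in DekTg and between 161 and 446 in DekCon. Megakaryocyte markers (6 genes) summed to between 2014 and 3350 in DekTg and between 2625 and 9404 in DekCon, the highest value being that of DekCon replicate 2. A sum is weighted to its most abundant genes. On the scale log2(value + 1), the DekTg mean was lower for 5 of 14 stem cell genes and 6 of 6 megakaryocyte markers. It was for 0 of 11 B and plasma cell markers, 2 of 9 erythroid markers and 49.4% of all genes tested. At a limma adjusted p under 0.05, 2 B and plasma cell and 3 erythroid markers were higher in DekTg. Of all genes 0.0347% passed in either direction. No marker of these lists was at 0 in all libraries, and the part of these cells in the proteasome values was not tested. Libraries 1 and 4 of each group were more alike than any other pair, with a chi-square per degree of freedom of 1.67 in DekTg and 1.58 in DekCon, against 3.63 to 7.83 for other pairs. They still differed by more than counting noise, which does not show whether they came from separate mice. They were kept as separate samples, and averaging them is among the alternatives.

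Most proteasome genes had slightly lower mean values in DekTg than in DekCon stem cells, but the difference passed the test for none of them. Of the 39 genes, all of which entered the test, 0 passed limma's test at an adjusted p under 0.05, where 0.0347% of all 37414 genes tested did in either direction and 0.00802% with lower values in DekTg. The smallest limma adjusted p of a proteasome gene was 0.711. With edgeR and with DESeq2 the count was also 0 of 39. The log2 fold change, DekTg minus DekCon on the scale log2(value + 1), lay below 0 for 38 of 39 genes, while 49.4% of all genes tested and 64.6% of the 11808 genes with a mean of at least 50 normalized reads lay below 0. Its median was -0.21 over the proteasome genes, 0.01 over all genes tested and -0.08 over the genes with a mean of at least 50. Unadjusted p was under 0.05, lower in DekTg, for 8 of 39 genes, where it was for 3.78% of all genes tested and 8.09% of those with a mean of at least 50. They are the core subunits Psmb5 and Psmb6, the immunoproteasome subunits Psmb9 and Psmb10, and Psmc3, Psmd2, Psmd4 and Psmd7 of the regulatory particle. This count rested on the libraries and the scaling: p under 0.05 in either direction was found for 2 of 39 genes without DekCon replicate 2, for 4 without DekTg replicate 1 and for 14 without DekTg replicate 2. Omission of DekCon replicate 3 gave 12 genes, and omission of any 1 of the libraries not named here gave 5 to 7. It was found for 3 genes each with equal totals and with quantile normalization, for 2 without the trend and for 8 each with edgeR and DESeq2. Library weights gave 13, the replicate number as a block 11, limma's robust option 10, and averaging of libraries 1 and 4 gave 4. The share of all genes with p under 0.05 was not computed for these settings. Unadjusted p was under 0.05 in the other direction for 0 of 39, where it was for 3.15% of all genes. In RNA from pooled cells, fewer cells of a type and less RNA per cell cannot be told apart.

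**Figure D1:**
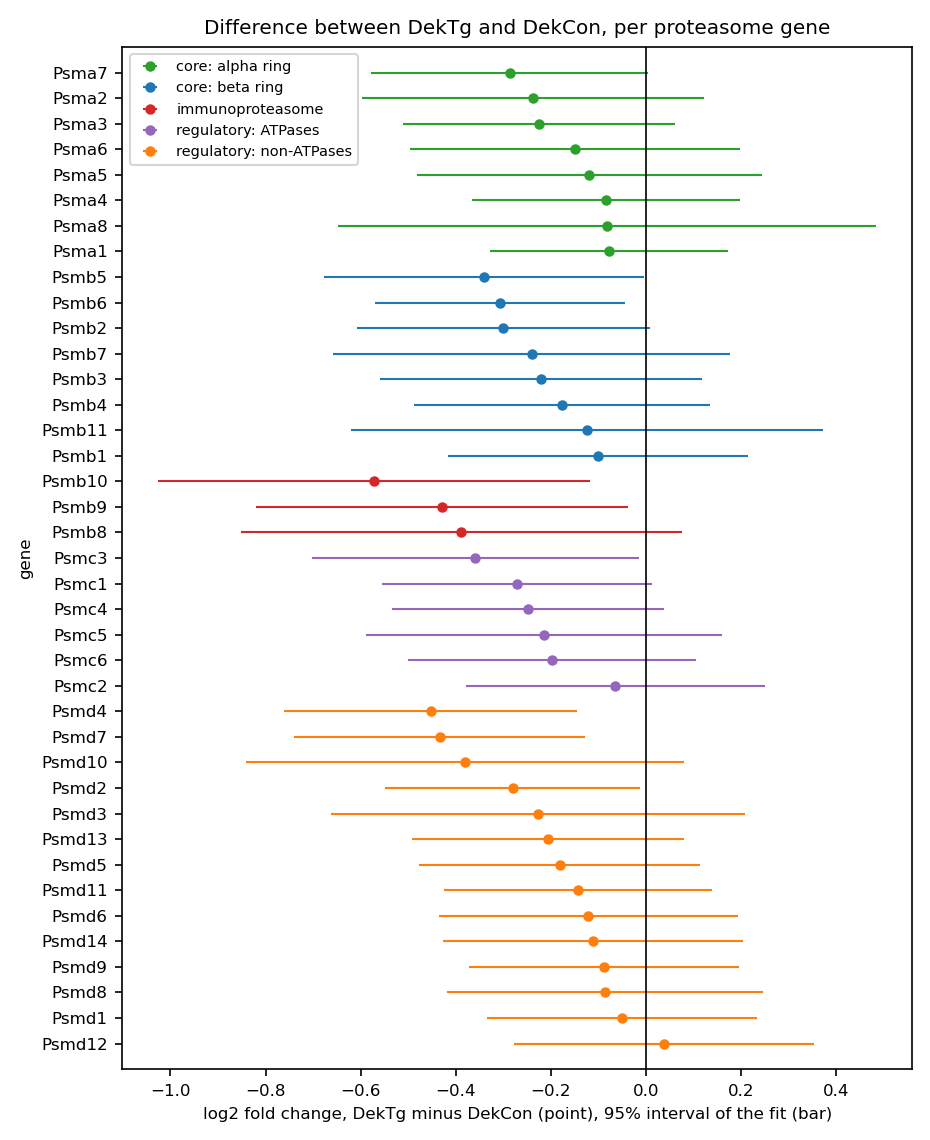
Log2 fold change of each of the 39 proteasome genes, DekTg minus DekCon on the scale log2(normalized read count + 1), with 4 libraries a group; points are the estimates of limma, bars their 95% intervals, colours the 5 structural groups. Apart from Psmd12 at 0.04, each point lies left of 0, the immunoproteasome genes farthest as a group, and most bars cross 0.

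Summed over all 39 genes, normalized reads came to 12237, 14168, 13146 and 12441 in DekTg libraries 1 to 4, against 14262, 18474, 13608 and 14130.0 in DekCon libraries 1 to 4. The sums of the groups overlap, and DekCon replicate 2 stands well above the other 7. It held the highest value of all 8 libraries for 35 of 39 genes. The other 4 genes peaked elsewhere: Psmc6, Psmd6 and Psmd14 in DekTg replicate 2, and Psmb11 in DekCon replicate 1. Without DekCon replicate 2 the median log2 fold change of the 39 genes was -0.12, with 31 of 39 below 0. The normalized total over all genes was also highest in this library, at 3521903, against 2959767 to 3202065 in the other 7. With all libraries rescaled to equal totals, the median was -0.13, with 33 of 39 below 0; this scaling also moved the median of all genes tested, which was then 0.08. With quantile normalization the median of the 39 was -0.11, with 31 of 39 below 0, and that of all genes 0.0046.

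**Figure D2:**
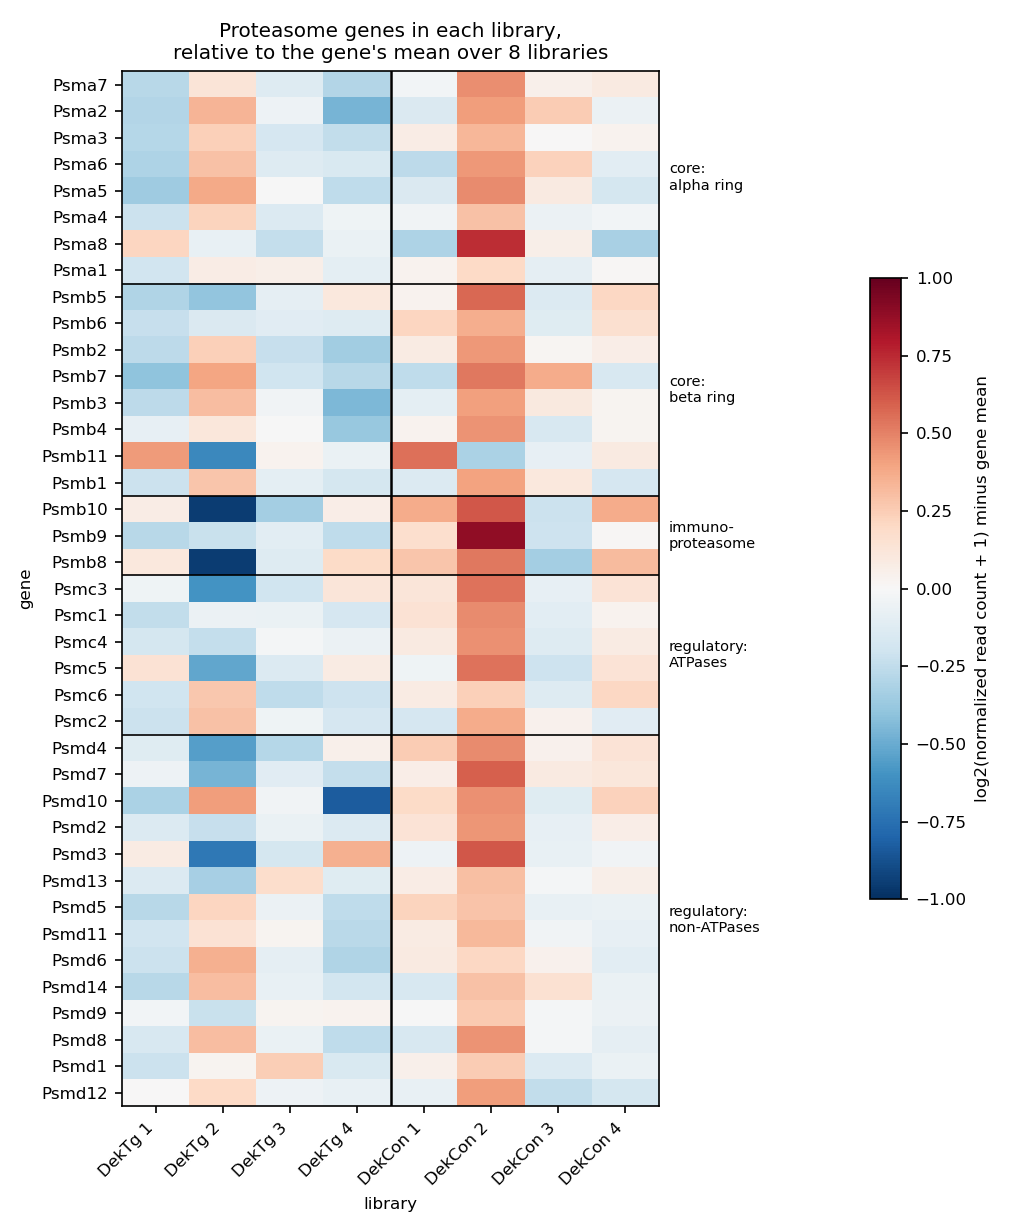
Each row is a proteasome gene, each column a library, with DekTg left of the black line and DekCon right of it; colour gives log2(normalized read count + 1) minus the mean of that gene over the 8 libraries. The column of DekCon replicate 2 is red for all genes but Psmb11, and the column of DekTg replicate 2 is split between red and blue, with Psmb8 and Psmb10 the deepest blue.

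The alpha ring gates the core. Its 8 genes had log2 fold changes between -0.29 and -0.08, with a median of -0.13, and 0 of 8 reached an unadjusted p of 0.05. Of all genes tested 3.78% had such a p and were lower in DekTg, and of those with a mean of at least 50 normalized reads 8.09%. Psma7 had 574, 765, 637 and 569 normalized reads in DekTg and 685, 962, 723 and 742 in DekCon. Its 3 lowest values are all from DekTg, but the second DekTg library lies above 3 of the 4 DekCon libraries. Psma7 differed by -0.29 on the log2 scale (SE 0.14, limma adjusted p = 0.717), and by -0.18 without DekCon replicate 2 and -0.12 with quantile normalization. Psma1 had 557, 671, 661 and 595 normalized reads in DekTg and 650.3, 732, 597 and 641 in DekCon, and the groups overlap in part: the 2 lowest values are from DekTg and the highest is from DekCon. Psma1 differed by -0.08 on the log2 scale (SE 0.12, limma adjusted p = 0.915), and it was above 0 with quantile normalization, at 0.08. Omitting DekCon replicate 3 or DekTg replicate 2 gave -0.12 each, omitting DekCon replicate 2 gave -0.02 and omitting DekTg replicate 1 gave -0.03. Per kilobase of the longest principal coding transcript, Psma7 was the most abundant alpha gene, at a level of 696 ± 99.8 normalized reads per kb in DekTg and 851 ± 137 in DekCon (SD, n = 4 each). The testis-restricted paralog of Psma7, Psma8, was the least, at 14.7 ± 2.07 per kb in DekTg and 16.2 ± 6.39 in DekCon. This order depends on the length used, and the transcripts present were not measured. Psma3 had more reads, a mean of 908 against 707 for Psma7, but a length of 2846 bases against 914. Psma8 ranged from 20.1 to 43.1 normalized reads over the 8 libraries, and reads of such a pair of paralogs may have been split by the authors' counting.

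The beta ring holds the catalytic subunits Psmb5, Psmb6 and Psmb7 beside structural ones. All 8 beta ring genes had log2 fold changes below 0, with a median of -0.23, and 2 of 8 had an unadjusted p under 0.05. Of the genes with a mean of at least 50 normalized reads, 64.6% lay below 0 and 8.09% had such a p, lower in DekTg. The stretches before the starts of Psmb5 and Psmb6 are shown because both hold a match, in capitals, to the antioxidant response element, the motif through which Nfe2l1 is known to act on proteasome genes. Each covers 250 bases, read 5′ to 3′ on the strand of the gene, from the RefSeq promoter table for GRCm38.p6: Psmb5 at chr14:54617996-54618245 on the minus strand and Psmb6 at chr11:70525107-70525356 on the plus strand.
Psmb5: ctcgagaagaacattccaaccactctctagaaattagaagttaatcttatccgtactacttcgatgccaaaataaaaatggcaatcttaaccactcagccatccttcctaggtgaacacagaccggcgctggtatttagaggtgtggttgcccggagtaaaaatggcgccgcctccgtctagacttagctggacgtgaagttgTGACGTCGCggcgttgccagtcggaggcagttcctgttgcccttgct
Psmb6: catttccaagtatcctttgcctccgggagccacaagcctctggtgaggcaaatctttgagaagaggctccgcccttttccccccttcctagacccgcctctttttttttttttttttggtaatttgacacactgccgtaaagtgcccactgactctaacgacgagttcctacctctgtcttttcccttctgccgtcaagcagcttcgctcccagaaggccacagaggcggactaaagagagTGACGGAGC
The element was searched as TGACNNNGC on both strands. It occurred in the windows of 5 of the 32 proteasome genes with an entry (15.6%), Psmb5, Psmb6, Psmc6, Psmd9 and Psmd12, and in 10.2% of 32817 promoter windows of the same length. The CCAAT box, searched as CCAAT on both strands, occurred in 13 of 32 (40.6%), where 33.8% of all windows held it. The 32 genes have 34 windows and a match in any window of a gene counted, whereas the share over all is per window. The 2 kinds of share are therefore not strictly alike. These matches describe letters and not binding.

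Psmb5, the chymotrypsin-like subunit (chr14:54614119-54618022, GENCODE M21 on GRCm38), had 218, 204, 252 and 289.8 normalized reads in DekTg and 276, 401, 245 and 310.3 in DekCon. The 2 lowest values are from DekTg and the 2 highest from DekCon, with the other 4 interleaved. This gave a log2 fold change of -0.34 (SE 0.16, unadjusted p = 0.0476, limma adjusted p = 0.716), and it was -0.21 without DekCon replicate 2. Psmb6, the caspase-like subunit (chr11:70525367-70527858), had 382, 405, 414 and 411 in DekTg, a narrow range, and 519.8, 577, 412 and 499 in DekCon. The third DekCon library fell within the DekTg range, and the other 3 lay above it. Psmb6 differed by -0.31 on the log2 scale (SE 0.12, unadjusted p = 0.0251, limma adjusted p = 0.711), and by -0.18 with quantile normalization. Psmb7, the trypsin-like subunit (chr2:38588036-38644087), had 132, 229, 151 and 144 in DekTg and 146, 252, 225 and 156 in DekCon. Both replicates 2 and DekCon replicate 3 were high, and the remaining 5 libraries lay close together. For Psmb7 the difference was -0.24 (SE 0.20, limma adjusted p = 0.823). Single libraries moved it widely: it was -0.10 when DekCon replicate 2 was left out, -0.15 when DekTg replicate 1 was, -0.16 when DekCon replicate 3 was, -0.37 when DekCon replicate 1 was and -0.41 when DekTg replicate 2 was.

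The structural subunit Psmb1 had 469, 659, 509 and 482 normalized reads in DekTg and 493, 719.6, 585 and 482 in DekCon, overlapping in part, with a log2 fold change of -0.10 (limma adjusted p = 0.912). It was above 0 with quantile normalization, at 0.05, and without DekCon replicate 2, at 0.02, and it was -0.21 without DekTg replicate 2. The thymoproteasome subunit Psmb11, known from the thymic cortex, had 74.2, 34.8, 56.3 and 52.5 in DekTg and 81.1, 44.0, 51.8 and 58.7 in DekCon. It was the only proteasome gene for which DekCon replicate 2 was the lowest library of its group. Its log2 fold change of -0.12 (limma adjusted p = 0.933) turned to 0.04 without DekCon replicate 1 and to 0.07 without DekTg replicate 2.

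The immunoproteasome genes had the median log2 fold change farthest from 0, -0.43, against -0.20 for the core and -0.20 for the regulatory particle; the groups were not tested against each other. Psmb8, known as the counterpart of Psmb5 (chr17:34197721-34201454), had 569.5, 274, 483 and 603 normalized reads in DekTg and 640.2, 762, 416 and 658 in DekCon. DekTg replicate 2 was far below the other 7, and the remaining DekTg libraries lie within the DekCon range. Psmb8 had a log2 fold change of -0.39 (SE 0.22, unadjusted p = 0.0951, limma adjusted p = 0.752). It was -0.14 when DekTg replicate 2 was left out, -0.28 when DekCon replicate 2 was and -0.03 when both were, and it was -0.22 with quantile normalization.

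Psmb9, the counterpart of Psmb6 (chr17:34181987-34187764), had 174, 181, 196 and 177 normalized reads in DekTg, again a narrow range, and 237, 392, 183 and 213 in DekCon. DekCon replicate 2 stands far above the rest, and DekCon replicate 3 lies inside the DekTg range. Psmb9 differed by -0.43 on the log2 scale (SE 0.19, unadjusted p = 0.0337, limma adjusted p = 0.711) and -0.20 without DekCon replicate 2. Psmb10, the counterpart of Psmb7 (chr8:105935735-105938444), had 189, 92.5, 142 and 188 in DekTg and 232, 276, 155 and 232 in DekCon. With all 8 libraries it had the log2 fold change farthest from 0 of the 39 genes, -0.57 (SE 0.22, unadjusted p = 0.0168, limma adjusted p = 0.711). DekTg replicate 2 is again the lowest library, and the log2 fold change was -0.35 without it and -0.24 without both replicates 2.

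Summed over the 3 genes, normalized reads were 932, 548, 821 and 968 in DekTg, against 1109, 1430.0, 754 and 1103 in DekCon. DekTg replicate 2 is the lowest and DekCon replicate 2 the highest, and DekCon replicate 3 falls below 3 DekTg libraries. The mean sum was 817 ± 190.3 in DekTg and 1099 ± 276 in DekCon (SD, n = 4 each), a ratio of 0.744, or 0.827 without DekCon replicate 2. The core summed to 6071 ± 864 in DekTg and 6970.5 ± 994 in DekCon, a ratio of 0.871, and the regulatory particle to a ratio of 0.867. Without DekCon replicate 2 these ratios were 0.938 and 0.935.

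**Figure D3:**
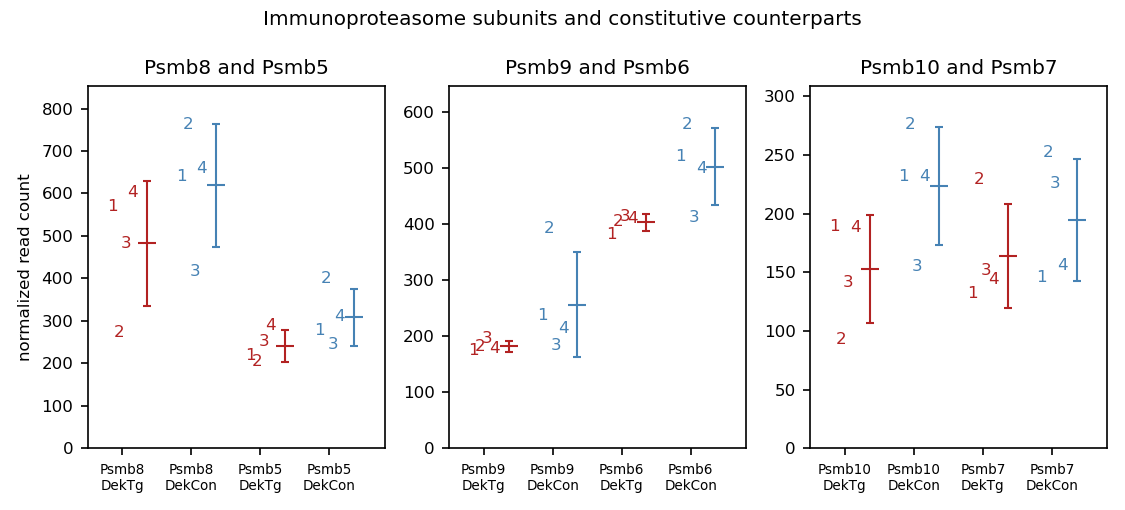
Normalized read counts of the immunoproteasome subunits Psmb8, Psmb9 and Psmb10 beside the constitutive subunits Psmb5, Psmb6 and Psmb7, DekTg in red left of DekCon in blue; each digit is a library, named by its replicate number, and the bars are mean ± SD (n = 4 each). Replicate 2 is the lowest DekTg library for Psmb8 and Psmb10 and the highest DekCon library for all 6 genes.

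Whether the RNA balance of the catalytic subunits differed was read from the log2 ratio of each immunoproteasome gene to its counterpart within a library. Scaling between libraries cancels in this ratio, but a dependence on GC content that differs between libraries does not. RNA levels do not show which subunits were built into proteasomes. Psmb8 to Psmb5 was 0.95 ± 0.40 in DekTg and 0.99 ± 0.19 in DekCon, a difference of -0.05 (two-sided exact permutation test, p = 0.857, adjusted over 3 ratios 0.857). Psmb9 to Psmb6 was -1.14 ± 0.05 in DekTg and -1.02 ± 0.31 in DekCon, a difference of -0.12 (exact permutation p = 0.83, adjusted 0.857). Psmb10 to Psmb7 was -0.12 ± 0.83 in DekTg and 0.21 ± 0.55 in DekCon, a difference of -0.33 (exact permutation p = 0.571, adjusted 0.857; SD and n = 4 each throughout). None of the 3 differences exceeded the spread between libraries, and the smallest p that 4 against 4 libraries allow is 0.0286. Per kilobase of the longest principal coding transcript, the level of Psmb8 was 0.741 to 1.44 times that of Psmb5 and above it in 6 of 8 libraries. Psmb9 was 0.252 to 0.401 times Psmb6, below it in every library, and Psmb10 was 0.357 to 1.41 times Psmb7, above it in 4 of 8. The ratio of Psmb10 to Psmb7 was lowest in DekTg replicate 2, and that of Psmb9 to Psmb6 was highest in DekCon replicate 2. Without DekTg replicate 2 the difference in the log2 ratio of Psmb10 to Psmb7 was 0.06. Transcript GC content is 56.5% for Psmb10 and 48.7% for Psmb7, and its part in the ratio was not tested.

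Psmb9 and Tap1, which encodes a subunit of the peptide transporter of the MHC class I pathway, have RefSeq starts 226 bases apart on chromosome 17 and run in opposite directions. Tap1 had 294, 235, 279 and 377 normalized reads in DekTg and 355, 854, 320.4 and 359 in DekCon, so that DekCon replicate 2 stands out for this gene as it does for Psmb9. Tap1 had a log2 fold change of -0.56 (limma adjusted p = 0.711), and -0.24 without DekCon replicate 2. The annotated genes overlap on opposite strands, and the strand setting of the counting is not given in the sources used here, so reads from the overlap cannot be assigned to either. The gamma-interferon-activated site, through which interferon gamma is known to act on genes, was searched as TTCNNNGAA on both strands. It occurred in the window of 1 of 32 proteasome genes (3.13%), Psmb8, and in 7.01% of all windows. In Psmb8 it read TTCCCAGAA, between 97 and 89 bases before the RefSeq start. That window, chr17:34197945-34198194, lies inside the gene as annotated by GENCODE. The window of Psmb9, chr17:34187331-34187580, also lies inside its GENCODE gene, so neither search covered the bases before the GENCODE start. The interferon-stimulated response element, searched as GAAA and GAAA set 2 bases apart on either strand, occurred in 3 of 32 (9.38%), Psmb3, Psmd4 and Psmd9, and in 2.97% of all windows; neither Psmb9 nor Psmb10 held a match to either interferon motif in this window.

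In the regulatory particle, the ATPases of the base had a median log2 fold change of -0.23 and the non-ATPase genes one of -0.16. Psmc3 (chr2:91054009-91066369), an ATPase, had 402, 273, 361 and 449 normalized reads in DekTg and 450.0, 604, 391 and 454 in DekCon. DekTg replicate 2 is the lowest and DekCon replicate 2 the highest, and the others overlap. The difference on the log2 scale was -0.36 (SE 0.16, unadjusted p = 0.0418, limma adjusted p = 0.711), and -0.10 without both replicates 2. Leaving out DekTg replicate 2 alone gave -0.22 and DekCon replicate 2 alone -0.24, and quantile normalization gave -0.22. Psmc2, also an ATPase, had 288, 411, 326 and 299 in DekTg and 298, 434, 345 and 310.3 in DekCon, with both replicates 2 high and the rest together. Its log2 fold change of -0.06 (limma adjusted p = 0.947) was above 0 with quantile normalization (0.04) and without DekCon replicate 2 (0.05), and it was -0.17 without DekTg replicate 2.

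Psmd4 and Psmd7 had the smallest p-values of the 39 genes with all 8 libraries. Psmd4 (chr3:95032694-95042614), a ubiquitin receptor, had 307, 228, 274 and 346 normalized reads in DekTg and 398, 465, 344 and 367 in DekCon. The fourth DekTg library lies just above the lowest DekCon library, and the groups are otherwise apart. Psmd4 had a difference of -0.45 on the log2 scale (SE 0.15, unadjusted p = 0.00639, limma adjusted p = 0.711), and -0.26 without both replicates 2. Psmd7 (chr8:107580381-107588464), the lid subunit that pairs with the deubiquitinase Psmd14, had 312, 233, 298 and 274 in DekTg and 337, 489, 344 and 349.6 in DekCon. It was the only proteasome gene whose groups did not overlap, 1 of 39, where 1.88% of all genes tested and 3.69% of those with a mean of at least 50 were non-overlapping and lower in DekTg. Non-overlapping and higher in DekTg were 0 of 39, where 2.09% of all genes were. Psmd7 had a log2 fold change of -0.43 (SE 0.15, unadjusted p = 0.00837, limma adjusted p = 0.711), and -0.22 without both replicates 2.

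Its catalytic partner Psmd14, which removes the ubiquitin chain, had 246, 370.0, 283 and 262 normalized reads in DekTg and 266, 366, 332 and 285 in DekCon, with no such separation. Psmd2, a large scaffold of the base, had 616, 578, 647 and 616 in DekTg and 743, 921, 638 and 710.0 in DekCon. All 4 DekTg values lie close together, and DekCon replicate 3 falls among them. The other scaffold, Psmd1, had 425, 503, 586 and 444 in DekTg and 512, 590.4, 449 and 472 in DekCon. Psmd12, a lid subunit, was the only gene of the 39 with a log2 fold change above 0, 0.04 (SE 0.15, limma adjusted p = 0.973), with 247, 282, 238 and 234 normalized reads in DekTg and 235, 329, 207 and 218 in DekCon. That sign changed on leaving out any of 3 libraries. The value was -0.04 when DekCon replicate 3 was omitted, -0.01 when DekCon replicate 4 was and -0.02 when DekTg replicate 2 was. The assembly chaperone Psmd10, also known as gankyrin, had 79.9, 133, 97.04 and 55.7 in DekTg and 114, 137, 91.4 and 117 in DekCon, and its lowest value is that of DekTg replicate 4. The other chaperones, Psmd5 and Psmd9, had 377 ± 62.2 and 158 ± 12.8 in DekTg, against 426 ± 55.0 and 168 ± 18.1 in DekCon (SD, n = 4 each).

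The proteasome genes did not move as 1 block across libraries. In DekCon, replicate 2 was the highest library for 38 of 39 genes. In DekTg, replicate 2 was the highest for 22 genes and the lowest for 13. Set against the mean of the other 3 DekTg libraries, it was higher for 7 of 8 alpha ring genes, 6 of 8 beta ring genes, 3 of 6 ATPases and 8 of 14 non-ATPase genes, and for 0 of the 3 immunoproteasome genes. The difference reached 0.81 for Psmd10 and 0.69 for Psmb7 on the log2 scale, and -1.002 for Psmb8, -0.88 for Psmb10 and -0.80 for the lid gene Psmd3. For Psmb9 it was -0.01.

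This split in DekTg replicate 2 followed the GC content of the transcripts. The 15 genes lower in DekTg replicate 2 had a median GC content of 53.5%, and the 24 higher ones one of 47.0%. Over the 39 genes, GC content and the difference had a Pearson r of -0.64 and a Spearman rho of -0.62. Over 9854 genes with a mean of at least 50 normalized reads and an annotated transcript, r was -0.53 and rho -0.52. All points of each comparison share the same 4 libraries. In DekCon replicate 2 the corresponding r over the 39 genes was 0.17. The immunoproteasome genes lie at the high end, at 55.8% for Psmb8, 55.3% for Psmb9 and 56.5% for Psmb10. Genes of high GC content did not all go the same way. Of the 19 above 50% GC, 13 were lower in DekTg replicate 2 and 6 higher. Psmb9 differed by -0.01, and Psmb3, at 53.8%, by 0.56.

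The GC content moves with the difference between the genotypes too. Over the 39 genes, the log2 fold change had an r of -0.47 with GC content (rho -0.53), and over the 9854 genes an r of -0.25 (rho -0.28). The 19 proteasome genes above 50% GC had a median log2 fold change of -0.28 and the other 20 one of -0.13, where all genes of these classes had -0.15 (4387 genes) and -0.05 (5467 genes). Without DekTg replicate 2 the medians of the proteasome genes were -0.24 above 50% GC and -0.26 at or below it. All genes of these classes then had -0.10 and -0.10, so the gap between the classes was small there too. Without DekCon replicate 2 the medians of the proteasome genes were -0.18 above 50% GC and -0.04 at or below it. All genes of these classes then had -0.11 and -0.04. The part of GC content in the difference between the genotypes was not tested. The boundary of 50% was chosen after the values were seen.

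**Figure D4:**
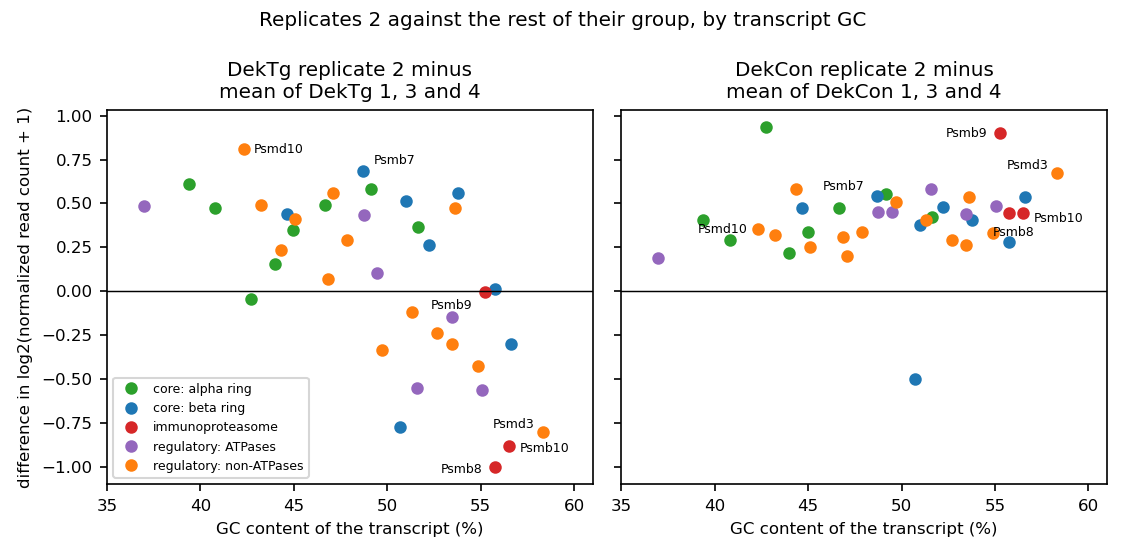
Difference in log2(normalized read count + 1) between replicate 2 and the mean of the other 3 libraries of its group, DekTg left and DekCon right, against the GC content of the transcript in percent; each point is 1 of 39 proteasome genes, coloured by structural group. In DekTg the points fall from above 0 at low GC to -1.002 for Psmb8 and -0.88 for Psmb10, while in DekCon all but Psmb11 lie above 0 at any GC.

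Of the genes that work with the proteasome, in 9 lists, 0 passed limma's test. For the counts of signs below, 49.4% of all genes tested lay below 0, and 64.6% of those with a mean of at least 50. The activators and the inhibitor had a median log2 fold change of -0.18, with 0 of 5 above 0. Psme3, an activator cap used mainly in the nucleus, had 169, 198, 183 and 161 normalized reads in DekTg and 254, 324, 206 and 209 in DekCon, without overlap (-0.46, limma adjusted p = 0.711). In this list 2 of 5 genes were non-overlapping and lower in DekTg. Of all genes tested 1.88% were, and of those with a mean of at least 50 normalized reads 3.69%. The core assembly chaperones had a median of -0.22, with 0 of 5 above 0, and Psmg1 among them one of -0.35 (limma adjusted p = 0.732). The proteasome-associated receptors, deubiquitinases and ligases had a median of -0.11, with 1 of 8 above 0. In this list Adrm1, a ubiquitin receptor, had 252, 93.7, 148 and 241 in DekTg and 267, 259, 203 and 249 in DekCon (-0.51, limma adjusted p = 0.716), and DekTg replicate 2 is again the lowest. Without that library the Adrm1 difference was -0.22.

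Upstream of the proteasome, the ubiquitin shuttle factors had a median of -0.27 (1 of 6 above 0). The p97 unfoldase and its cofactors had -0.09 (2 of 7 above 0; Nsfl1c -0.28, limma adjusted p = 0.752), and the ubiquitin genes with the E1 enzymes -0.09 (1 of 6 above 0; Ubb -0.28, limma adjusted p = 0.749). The transcription factors known to act through the antioxidant response element, Nfe2l1, Nfe2l2, Nfe2l3 and the small Maf proteins, had a median of -0.21, with 0 of 6 above 0. Nfe2l1, the factor that raises proteasome genes when the proteasome is inhibited, had 89.0, 52.9, 76.7 and 119 normalized reads in DekTg and 127, 108, 71.6 and 124 in DekCon. These groups overlap. Mafg, a small Maf partner, had a log2 fold change of -0.44 (limma adjusted p = 0.711).

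Downstream, the 11 genes of MHC class I peptide loading had a median log2 fold change of -0.35, with 0 of 11 above 0 and 0 of 11 past limma's test. Apart from Tap1, Tapbp, which holds the class I molecule at the transporter, had 629.7, 501, 625 and 741 normalized reads in DekTg and 785, 1038, 680.3 and 757 in DekCon (-0.38, limma adjusted p = 0.711; -0.21 with quantile normalization). The summed reads of these 11 genes were 17240, 18956, 17203 and 18209 in DekTg, against 21220, 29388, 17790.1 and 20083 in DekCon, with DekCon replicate 2 highest as for the proteasome genes. Regulators of the immunoproteasome in the interferon pathway (10 genes) had a median of -0.15, with 2 of 10 above 0. Ifngr1, a chain of the interferon gamma receptor, had 434, 480.5, 454 and 424 in DekTg and 527, 790.4, 596 and 523 in DekCon, without overlap (-0.42, limma adjusted p = 0.711, and -0.27 with quantile normalization). In this list 2 of 10 genes were non-overlapping and lower in DekTg, where 1.88% of all genes tested and 3.69% of those with a mean of at least 50 were. Apart from the activators, the count was 0 in each other pathway list.

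Some of these counts carry limits from the annotation. The table holds 5 pseudogenes of proteasome genes, of which Psmb5-ps had the most reads, 32.5 to 74.8 per library, and the counting may have split reads between a gene and its copy. Of the 39 genes, 18 overlap another gene of the table, 14 of them a gene on the opposite strand and 6 of them a gene on the same strand, so part of their reads cannot be assigned with certainty.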

How the data were processed

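Total RNA of sorted stem cells (4 DekTg and 4 DekCon libraries) was extracted with a miRNeasy kit, amplified by Geo-seq, a protocol for small cell numbers, and tagmented, per the labels. Bowtie 0.12.9, Cufflinks 2.1.1, HTSeq, DESeq2 and mm10 were used, per the submitters' processing notes; neither their roles nor the annotation or strandedness of the counting is given in the sources used here. Each gene has 1 deposited signal value per library, in a table the authors call FPKM. Within a library, 99.99% of 417792 deposited values are whole multiples of 1 step (tolerance 0.001 reads), whose reciprocal equals the median-of-ratios size factor within a relative gap of 4.2e-05, so the values are read counts divided by size factors. The 25 exceptions lie in Dek, Cdc20, Cdk1, Fos, Ifit2 and Csf2, none a proteasome gene. The control columns, spelled DenCon, were taken as DekCon by title and number.

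Genes with a value of at least 1 in at least 4 of 8 libraries were tested by limma 3.58.1 (R 4.3.3) on log2(value + 1) with a mean-variance trend, two-sided, Benjamini-Hochberg adjusted over 37414 genes, threshold 0.05. The test had been set for FPKM and was retained, because log values of either unit can enter it; differences of low genes are understated. The script was tested on simulated data. Subunit ratios were compared by exact permutation (scipy 1.17.1). EdgeR 4.0.16 and DESeq2 1.42.0 were run on the recovered reads as alternatives, together with other pseudocounts, filters, scalings, limma options, a replicate block and omission of each library. Amplified reads carry no molecular identifiers, so depth covers counting error only. Transcript length, GC content and positions are from GENCODE M21 (GRCm38, which mm10 names), taking the longest principal coding transcript. Promoters are from RefSeq, with entries for 32 of 39 genes, and motifs were searched in the 250 bases before the start. Motif counts of proteasome genes are per gene, and those over all promoters are per window.

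The members and the gene lists were chosen with earlier results of these data known. Named genes are the catalytic and immunoproteasome subunits, the member of smallest p and those of highest and lowest log2 fold change in each structural group, and the member of smallest p in each pathway list, 1 of which is not reported here. Psmd2, Psmd7, Tap1, Psmb11, Psma8, the genes given by level alone, the GC classes, edgeR, DESeq2, averaging of libraries 1 and 4, omission of both replicates 2 and omission of the 6 genes with values that are not whole were chosen after values were seen. Marker lists are given by their sums, and some also by counts of genes. Sums of the lists not given above were, for granulocyte and monocyte markers, 3065 to 13372 in DekTg and 4808 to 11579 in DekCon, and for T and NK markers, 459 to 668 in DekTg and 545 to 951 in DekCon. Macrophage and dendritic markers summed to 1009 to 1218 in DekTg and 777 to 1246 in DekCon, and stroma markers to 712 to 763 in DekTg and 579 to 758 in DekCon.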

Additional observations from a re-analysis of the deposited data

Results flagged for a closer look

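In groups of 4 libraries, a value was marked where its gap to the nearest library, as a share of the range of its group, exceeded Dixon's critical value at a confidence of 95%. Of 78 groups (39 genes in 2 genotypes) 6 were marked, where the nominal rate is about 1 in 20. That rate is for independent groups, whereas these genes share the same libraries. The share marked over all genes was not computed, so the count is not a result about the proteasome genes. In DekTg, Psmc6 was high in replicate 2, at 335 normalized reads, against 234 to 242 in the other DekTg libraries. The remaining 5 were high in DekCon replicate 2. There Psma4 had 436, against 341 to 348 in the other DekCon libraries, Psmb2 had 527, against 395 to 415, and Psmd3 had 325, against 201 to 206. In the same library Psmd7 had 489, against 337 to 349.6, and Psmd9 had 195, against 156 to 162. Psmd7 is the gene whose groups did not overlap, and its log2 fold change was -0.31 without this library (limma adjusted p = 0.93). DekCon replicate 2 also had the highest sum of megakaryocyte markers, 9404 normalized reads, and the part of that in these values was not tested.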

How the results depend on the processing

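The count of proteasome genes past the threshold was 0 in all 23 alternatives. The count of all genes, 13, was 4 without the trend, 39 without both replicates 2, 8 without the 6 genes whose values are not whole, and 13 to 22 on leaving out 1 library, 22 being the value without DekTg replicate 2. It was 9 with edgeR and 14 with DESeq2 without independent filtering. Both were run without those 6 genes, so the limma count to set beside them is 8. The median log2 fold change of the proteasome genes ranged from -0.26 to -0.12 on leaving out 1 library, and was -0.13 without both replicates 2; the range was -0.27 to -0.11 for the core, -0.57 to -0.28 for the immunoproteasome and -0.26 to -0.09 for the regulatory particle. The immunoproteasome median was -0.20 without both replicates 2. With equal totals the log2 fold change was 0.0083 for Psma1, 0.0014 for Psma8 and 0.021 for Psmc2; by its construction this scaling raised all genes, whose median was 0.08 with it and 0.01 without, and these signs are not changes relative to other genes. The cause was not tested for the other signs that turned. With quantile normalization it was 0.081 for Psma1, 0.050 for Psmb1 and 0.035 for Psmc2. Psma8 had 0.056 with library weights, 0.15 without DekCon replicate 2 and 0.16 without both replicates 2. Leaving out 1 library gave ranges of -0.20 to 0.15 for Psma8, -0.21 to 0.018 for Psmb1, -0.29 to 0.069 for Psmb11, -0.17 to 0.048 for Psmc2 and -0.039 to 0.18 for Psmd12. For the ratios these ranges were -0.19 to 0.13 for Psmb8 to Psmb5, -0.19 to 0.033 for Psmb9 to Psmb6 and -0.58 to 0.061 for Psmb10 to Psmb7. Above 0 were Psmb8 to Psmb5 without DekCon replicate 1 (0.024) or DekTg replicate 2 (0.13), Psmb9 to Psmb6 without DekCon replicate 2 (0.033) and Psmb10 to Psmb7 without DekTg replicate 2 (0.061).

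The deviations of same-numbered libraries from their group means correlated at 0.04, 0.01, 0.04 and 0.15, and those of DekTg replicate 2 and DekCon replicate 3 at 0.28, so the numbers were not taken as pairs. With the replicate number as a block, 15 genes and 0 proteasome genes passed, and the ratios had exact sign-flip p-values of 0.875, 1 and 0.625. With 4 libraries a group at 2525884 to 4101132 reads, a gene that did not pass may still differ: the 95% interval of Psmb10 ran from -1.03 to -0.12 and that of Psmb8 from -0.85 to 0.08 on the log2 scale.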
